A study of Mus musculus with 3 samples.

Results

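Cytosolic ribosomal protein genes encode the proteins of the large (60S) and small (40S) subunits of the ribosomes that translate nuclear mRNAs. They were followed here in polyA-selected RNA-seq of activated mouse regulatory T cells. Members were taken by symbol: Rpl or Rps followed by a digit, Rplp followed by a digit, or Rpsa, with at least 1 protein-coding transcript and without processed pseudogenes ("-ps" symbols) or the Rps6k kinases. This gave 86 of the 55536 genes of the gene table, annotated with GENCODE M21 on mm10. Of these, 46 encode large-subunit proteins, 31 small-subunit proteins, 7 are paralogs or variant copies of another member, and 2 (Rps19bp1 and Rpl7l1) carry the symbol but are not known as subunits of the mature ribosome. A further 7 symbols matched but had no protein-coding transcript (Rpl32l, Rpl37rt, Rpl6l, Rps12l1, Rps3a2, Rps3a3 and Rps4l) and were left out. Fau and Rack1 encode or carry ribosomal proteins under other names and are no members.

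All 3 libraries came from 1 male adult donor mouse aged 4 months that carried the Foxp3CreERT2 and Rosa26YFP alleles, in which the Foxp3 gene drives a tamoxifen-inducible Cre and the Rosa26 locus holds a fluorescent reporter. The source label places the origin of the cells in bone marrow. The sources used here do not say how the cells were sorted or activated. RNA was sheared to 100 to 300 bp. The libraries are labelled as technical replicates 1, 2 and 3 of biological replicate 1, and there was no control group. Taken by these labels, every SD below may be technical. Some markers of other cells differed widely between the libraries (below), and whether these are repeat preparations of the same RNA was not tested.

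A ribosome holds a single copy of nearly every ribosomal protein, and cells make these proteins in near-equal amounts. In vertebrates, their mRNAs typically begin with a C followed by a run of pyrimidines, the 5' terminal oligopyrimidine (TOP) motif, through which mTORC1 and the binding protein Larp1 adjust their translation to nutrient and growth signals. Mammalian genomes also hold many retrotransposed copies of these genes, most of them without introns.

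The libraries held 10981924, 9700630 and 6667391 expected counts in replicates 1, 2 and 3. The 8 regulatory T and T cell markers were all detected (at least 1 TPM in every library), and summed to 5926, 6163 and 4634 TPM in replicates 1, 2 and 3. The sum was lowest in replicate 3, where Foxp3, the lineage factor (29.5, 28.7 and 49.8 TPM), and Ctla4 (190, 250 and 612 TPM) were higher and Cd3e (1170, 1323 and 811 TPM), Trac (3089, 2951 and 2054 TPM) and Cd4 (314, 421 and 244 TPM) lower than in the other libraries. Markers of other cells were also present. The erythroid list (2 of 6 detected) summed to 798, 5.30 and 23.4 TPM, the plasma cell list (3 of 4 detected) to 96.7, 48.3 and 151 TPM, and the B cell list (4 of 5 detected) to between 67.4 and 101 TPM. Hbb-bs, a globin gene, was at 288, 2.35 and 10.2 TPM and Jchain, a plasma cell gene, at 43.4, 4.70 and 69.6 TPM (adjusted p of 1.29e-13 and 1.66e-05 with edgeR's trended dispersion). The myeloid list (2 of 5 detected) summed to between 5.96 and 19.8 TPM and the stromal, endothelial and epithelial list (1 of 5 detected) to between 1.25 and 2.59 TPM. No defining marker of these lists was at 0 in all libraries. The part of these cells in the results below was not tested.

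The starts and coding sequences of a few members are shown because the TOP-like start and the near-identity of copies both return in the results. The windows of 30 bases below span the annotated start (RefSeq, GRCm38.p6) of Rpl18, a large-subunit gene with a long TOP-like run, of Rps24 and Rps27, both small-subunit genes, of Rps27rt, a copy of Rps27 annotated as a single exon, and of Rps27l, its diverged paralog. Capitals mark the pyrimidine run that begins with C within 5 bases of the start.
Rpl18, chr7:45718056-45718085, plus strand: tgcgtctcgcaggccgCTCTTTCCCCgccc
Rps24, chr14:24490663-24490692, plus strand: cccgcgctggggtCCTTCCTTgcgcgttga
Rps27, chr3:90213634-90213663, minus strand: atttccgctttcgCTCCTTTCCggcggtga
Rps27rt, chr9:114982725-114982754, minus strand: agaacttatcccttgCTTTCCggcggtgac
Rps27l, chr9:66946071-66946100, plus strand: ccactcctccccgccgCCTCTatcccggaa

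Such runs were more frequent at members than at genes in general. Of the 66 members matched by symbol to the RefSeq promoter table, 29 (43.9%) had a run of at least 5 pyrimidines beginning with C within 5 bases of the start, against 18.1% of the 16443 genes in that table with a protein-coding M21 model. A run of at least 8 was found in 19 members (28.8%), against 4.29% of those genes. Annotated starts are approximate, and for 24 of the 66 the RefSeq and M21 starts lay within 5 bases of each other. In the whole promoter of 300 bases, each motif was searched on both strands and counted by itself, also where matches overlapped. CCGGAAG, the core bound by ETS factors, was found in 37.9% of the matched members, against 12.4% of the genes. GGGCGG, the core bound by Sp1, was found in 59.1% and 48.5%, and AAGATGGCG, a YY1 motif, in 6.06% and 2.09%. TATAAA was found in 9.09% of the members and 12.9% of the genes. These are letter matches and not binding sites.

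The coding sequence of Rps27 and Rps27rt is identical in all 255 bases and is printed once, since no read inside it can be assigned to either gene. That of Rps27l has the same length and differs at 61 bases, shown in capitals.
Rps27 and Rps27rt: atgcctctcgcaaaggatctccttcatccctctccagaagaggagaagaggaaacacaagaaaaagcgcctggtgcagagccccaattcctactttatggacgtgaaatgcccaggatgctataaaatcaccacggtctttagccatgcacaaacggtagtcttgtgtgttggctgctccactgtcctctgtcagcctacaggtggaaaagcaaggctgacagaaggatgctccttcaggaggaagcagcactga
Rps27l: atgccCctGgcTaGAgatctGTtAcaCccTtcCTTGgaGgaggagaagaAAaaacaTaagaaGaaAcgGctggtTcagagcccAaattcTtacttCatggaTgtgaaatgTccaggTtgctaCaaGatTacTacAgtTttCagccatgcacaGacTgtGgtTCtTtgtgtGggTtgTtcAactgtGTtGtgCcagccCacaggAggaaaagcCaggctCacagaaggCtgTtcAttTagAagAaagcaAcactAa
Rpl41, which encodes the smallest protein of the group, is shown for the wealth in basic residues that ribosomal proteins share. Its 25 codons include 17 for lysine or arginine, in capitals.
Rpl41: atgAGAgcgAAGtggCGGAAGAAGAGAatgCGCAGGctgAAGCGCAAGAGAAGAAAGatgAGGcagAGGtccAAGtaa

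Members were short, basic and compact. Their median transcript had 680 nt, against 1208 nt for the 78 mitochondrial ribosomal protein genes and 2370 nt for 21523 protein-coding genes. The median 3' UTR had 59 nt in the members and 665 nt in protein-coding genes, and the median coding sequence 149.5 and 380 codons. Lysine and arginine codons made up a median of 21.7% of the members' coding sequence (6.14 to 68% over the 86), 16.0% of that of mitochondrial ribosomal protein genes and 11.1% of that of protein-coding genes. Members lay on 19 chromosomes, with 14 members on chromosome 7 and 4 on X. An annotated small nucleolar RNA, a class that guides chemical modification of ribosomal RNA, lay inside 30 members (34.9%), against 1.18% of protein-coding genes. There were 58 such RNAs in all, 5 of them inside Rpl4 and 4 inside Rpl13a.

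The members took up 6.76, 5.71 and 7.76% of all expected counts in replicates 1, 2 and 3, with exact 95% binomial intervals of 6.75 to 6.78, 5.69 to 5.72 and 7.74 to 7.78%. The mean was 6.74 ± 1.03% (SD, n = 3). Intervals and floors here cover counting error only. The spread between libraries was far wider than these intervals. In bulk RNA, fewer cells of a type and less RNA per cell cannot be told apart, which holds for each level below.

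Per length, the median member was at 1473 ± 153 TPM, a level scaled to transcript length and library size, against 60.8 ± 1.00 TPM for mitochondrial ribosomal protein genes and 18.5 ± 0.98 TPM for protein-coding genes at 1 TPM or more (means ± SD of the 3 library medians). Of the 86 members, 83 were detected, 80 were at 100 TPM or more in every library and 56 averaged 1000 TPM or more. The 100 genes with the highest mean TPM included 43 members. The 77 subunit genes differed in mRNA level by 7.13-fold between the 90th percentile (4296 TPM) and the 10th percentile (602 TPM), or 4.62-fold with the TPM of near-identical copies added to each gene. Between the highest and the lowest gene the fold was 136, which rested on Rpl5. It was 42.5 without Rpl5 and 16.0 with the copies added. Across the 83 detected members, TPM and transcript length were nearly unrelated (Spearman's rho -0.07 across genes).

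**Figure D1:**
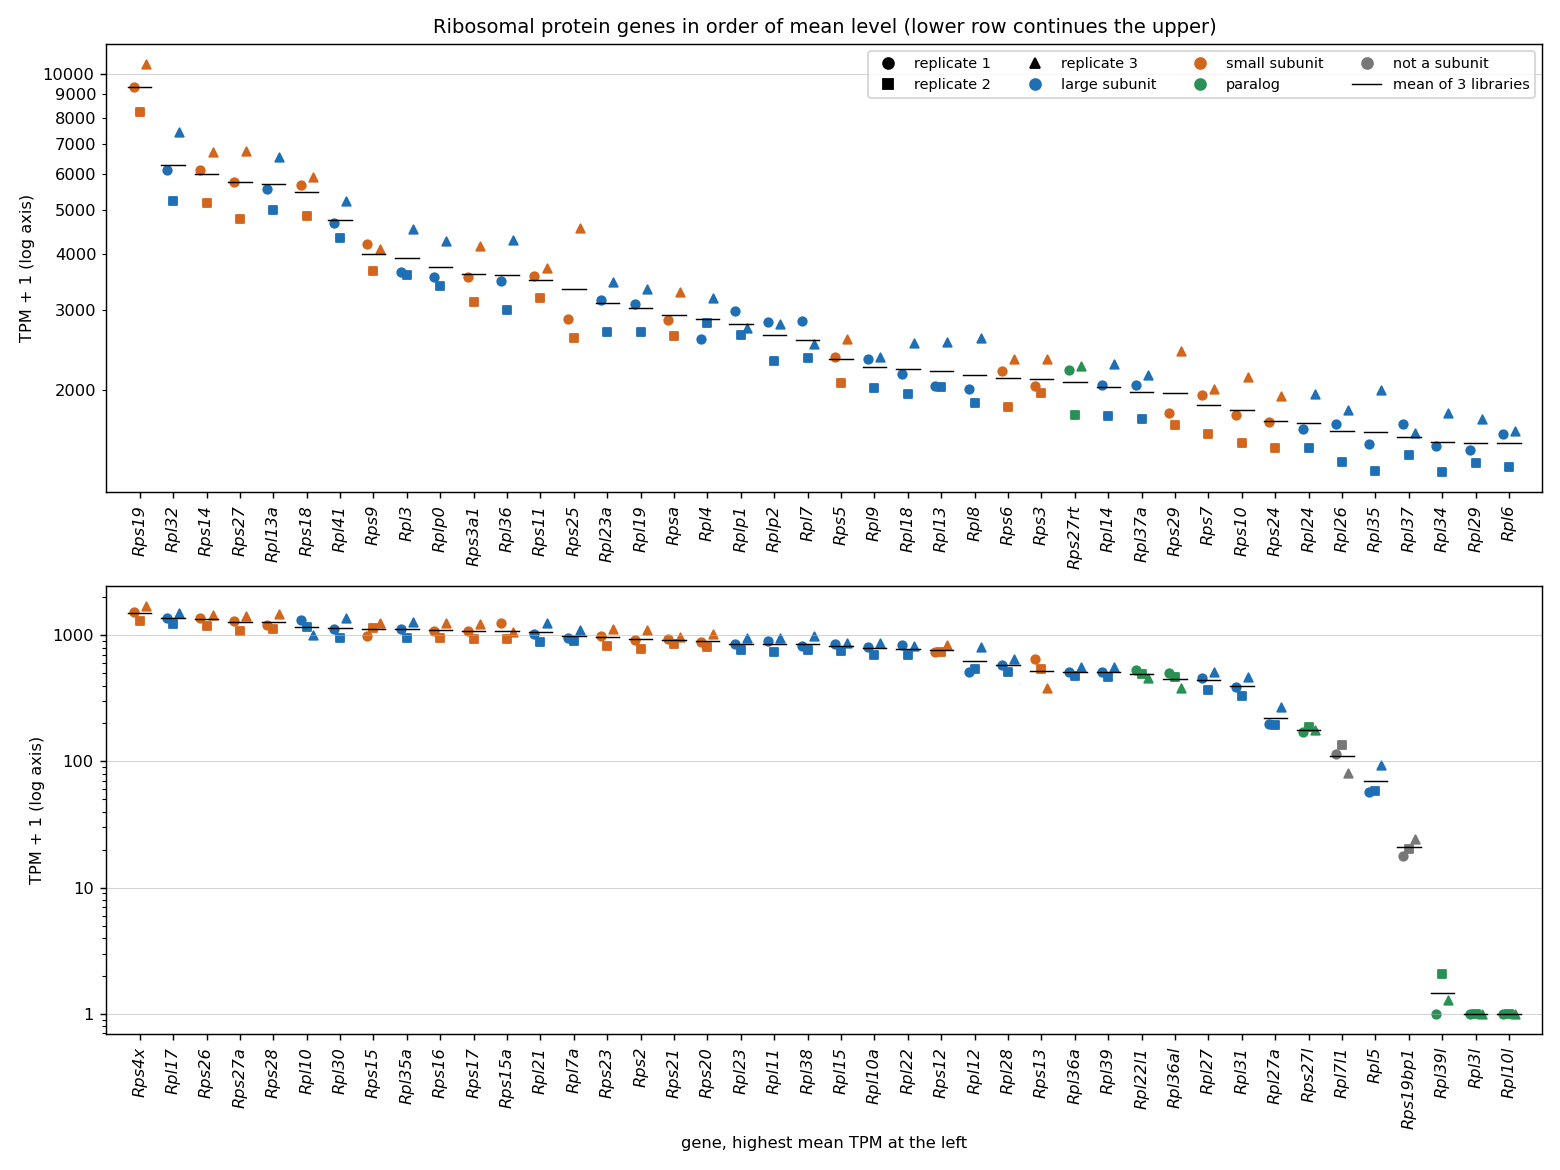
Level of 84 of the 86 members (TPM + 1, log axis) in replicates 1, 2 and 3, ordered by mean TPM, with subunit classes in colour and the mean of 3 libraries as a line. Rps19 stands at the upper end, the 10th and 90th percentiles of the subunit genes are 602 and 4296 TPM, and Rpl5 is the lowest subunit gene.

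Rps19 (chr7:24884371-24889806, plus strand), a small-subunit protein mutated in Diamond-Blackfan anaemia, was the highest member at 9354, 8220.3 and 10486 TPM in replicates 1, 2 and 3 (9354 ± 1133, SD, n = 3) and ranked 6th of all genes. Other high members were Rpl32 (6273 ± 1114 TPM), Rps14 (6009 ± 782), Rps27 (5764 ± 980.3), Rpl13a (5700.4 ± 773), Rps18 (5468 ± 558) and Rpl41 (4750.2 ± 460). In each library Rps19 was the highest member. Over all 85 pairs of neighbours in the order of mean TPM, the ranges of the 3 libraries were separate in 6.

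The 3 proteins of the large-subunit stalk, which recruits translation factors, lay close together. Rplp0, the base of the stalk, was at 3561, 3396 and 4276 TPM, Rplp1 at 2996, 2654 and 2742 TPM and Rplp2 at 2828, 2322 and 2806 TPM. The stalk carries more than 1 copy of Rplp1 and of Rplp2 for each Rplp0, and neither mRNA was above that of Rplp0 in any library. Rpsa, also known as the laminin receptor precursor, averaged 2932 ± 336 TPM. Rps6, the subunit phosphorylated by S6 kinases downstream of mTORC1, averaged 2129 ± 267 TPM. Rps24, which is spliced into isoforms, averaged 1710 ± 225 TPM and Rps27a, which is made as a fusion with ubiquitin, 1271 ± 167 TPM. Of the ribosomal proteins under other names, Fau averaged 2656 ± 175 and Rack1 1155 ± 131 TPM. The 4 X-linked members averaged 1511 ± 196 (Rps4x), 1167 ± 159 (Rpl10), 515 ± 44.4 (Rpl36a) and 512 ± 47.9 TPM (Rpl39).

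At the lower end, Rpl5 (chr5:107900502-107909005, plus strand), which binds 5S ribosomal RNA and with Rpl11 holds Mdm2 in check, was at 56.4, 57.6 and 92.5 TPM (68.8 ± 20.5, SD, n = 3) and ranked 2139th. Replicate 3 stood above the others. The next lowest subunit gene, Rpl27a, was at 198, 195 and 267 TPM and, like Rpl5, shares its sequence with copies described below. The other low members were paralogs or not subunits. Rps27l averaged 178 ± 8.68 TPM, Rpl7l1, a nucleolar protein related to Rpl7, 109 ± 27.5 TPM and Rps19bp1, a binding partner of Rps19, 19.9 ± 3.20 TPM. Rpl39l, a copy of Rpl39 known from testis, had 0, 3 and 1 counts. Rpl3l, known from striated muscle, and Rpl10l, known from testis, were listed at 0 in all 3 libraries of the gene table. The limit that a count of 0 allows there is 0.273, 0.309 and 0.450 CPM, the count relative to the library total. A second transcript table, described below, gave Rpl10l counts above 0 in every library and Rpl3l in replicates 1 and 2.

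Large-subunit genes summed to 91987, 81561 and 103252 TPM and small-subunit genes to 73393, 64279 and 82598 TPM, a log2 ratio of 0.33 ± 0.01. There are more large-subunit genes. By the median gene the order was the reverse, with large-subunit genes at 1560.0 ± 193 TPM and small-subunit genes at 1710 ± 225 TPM, a log2 ratio of -0.13 ± 0.01 (SD, n = 3).

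Paralogs were set against the member they resemble, as the difference in log2(TPM + 1). Rpl22l1, which can stand in for Rpl22 in mouse cells that lack it, was at 528, 490 and 454 TPM, against 831, 693 and 819 TPM for Rpl22, a difference of -0.67 ± 0.18 (SD, n = 3). The ranges did not overlap. Transcripts annotated as protein-coding held 14.9% of the TPM of Rpl22l1 and 97.3% of that of Rpl22, and on those transcripts alone the difference was -3.37 ± 0.35. Rpl36al was at 500.0, 466 and 382 TPM, against 510, 473 and 562 TPM for Rpl36a, a difference of -0.20 ± 0.31, smaller than its own spread. Rpl36a held 59.0% of the counts it shares with near-identical copies and Rpl36al 95.6%. With the copies added to both, the difference was -1.43 ± 0.34. The other diverged paralogs were low. The difference was -5.00 ± 0.30 for Rps27l against Rps27 and -4.57 ± 0.43 for Rpl7l1 against Rpl7. Their coding sequences were 68.2% (Rpl22l1), 87.9% (Rpl36al), 76.1% (Rps27l) and 54.0% (Rpl7l1) identical to those of the members they were set against.

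**Figure D2:**
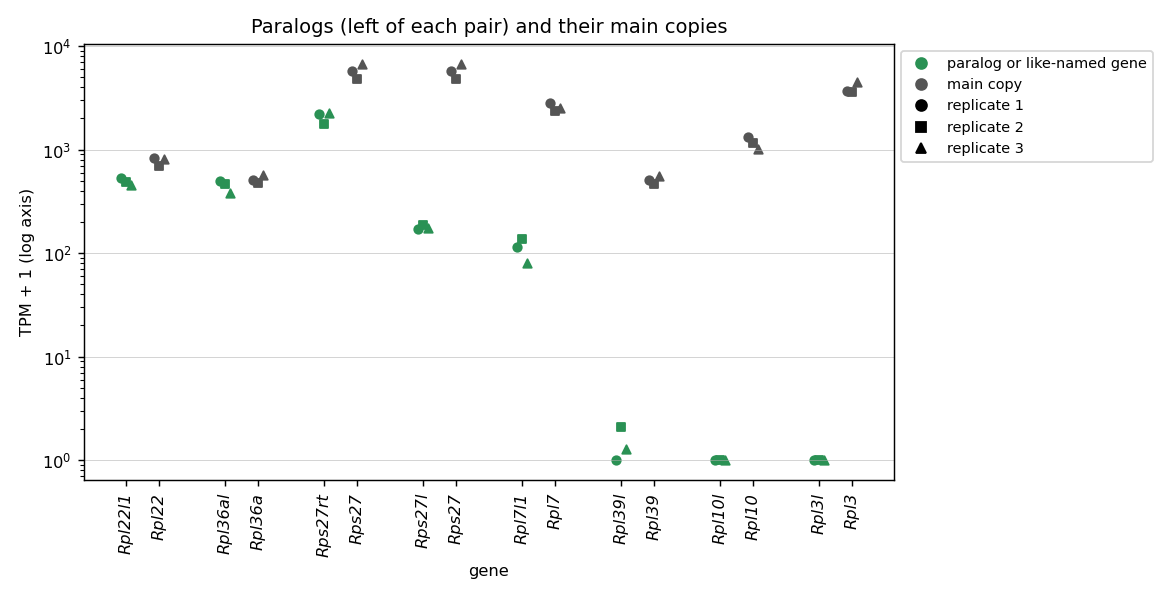
Level (TPM + 1, log axis) of 8 paralogs, each left of the member it is set against, in 3 libraries, on the gene table's values. Rpl36al lies close to Rpl36a and Rpl22l1 just below Rpl22 before copies and transcript types are taken into account, while Rpl3l, Rpl10l and Rpl39l lie at or near 0.

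Rps27rt was reported at 2218, 1764 and 2263 TPM, a difference of -1.46 ± 0.10 from Rps27. The 3 tables divided the counts of the pair differently. Rps27rt (chr9:114982366-114982739, minus strand) took 29.5 ± 1.57% of the counts of the pair in the gene table, 10.4 ± 1.35% in a second transcript table, with estimated counts on the same models, and 1.28 ± 0.117% in the whole-number counts made with the older M4 gene models (SD, n = 3 each). In log2 units the difference in the second transcript table was -3.28 ± 0.21. The ranges of the 3 tables did not overlap.

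Most members had near-identical copies elsewhere in the genome. A search of the M21 transcripts found 994 genes outside the members that were at least 90% identical over at least 80% of a member's coding sequence, 971 of them annotated as pseudogenes and 766 without "-ps" in their symbol. A copy was found for 79 of the 86 members, with a median of 8 and up to 77 (Rpl21). A copy that matched several members was assigned to 1 of them. The copies held 1.20, 1.02 and 1.43% of the counts of the libraries, and members with their copies 7.97, 6.73 and 9.19%. Members kept 84.9, 84.8 and 84.5% of these family totals. The median member kept 94.2%, 50 of the 83 detected members kept at least 90%, and 12 kept less than 50% (Rpl5, Rpl11, Rpl13, Rpl15, Rpl27, Rpl27a, Rpl28, Rpl31, Rps6, Rps13, Rps16 and Rps23). By the second transcript table, 19 kept less than 50%.

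**Figure D3:**
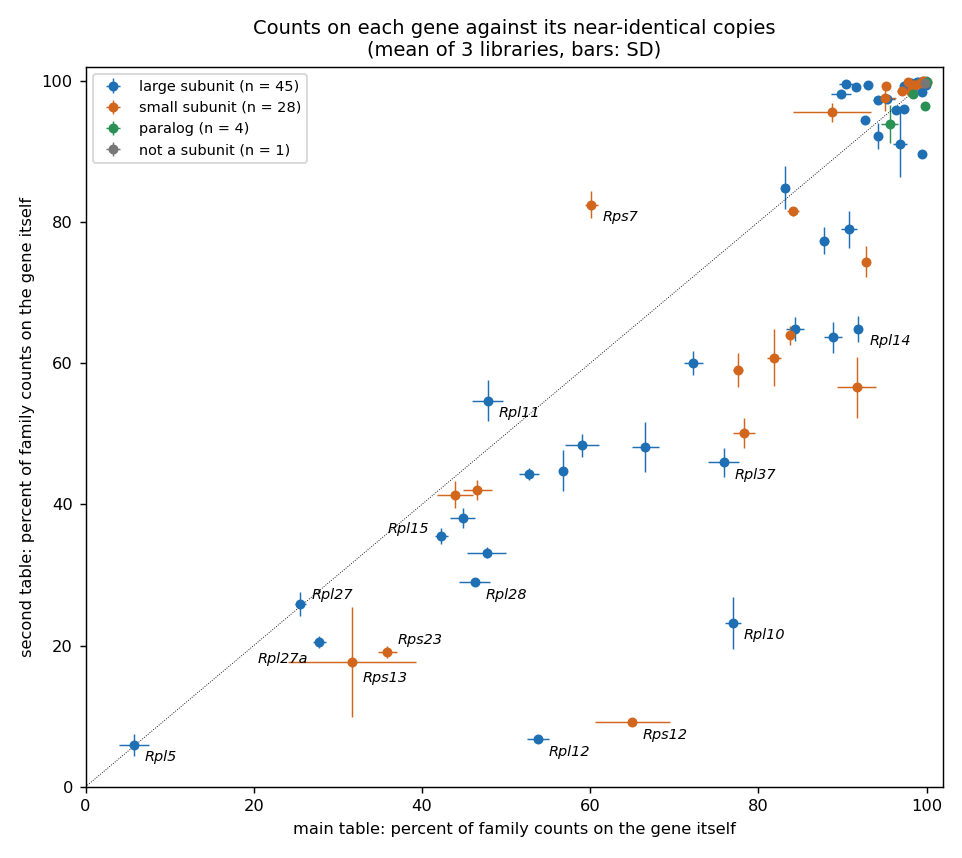
Percent of the counts of a gene and its near-identical copies that the gene itself held, in the gene table (main table, x axis) and the second transcript table (y axis), as mean ± SD of 3 libraries for the 78 detected members with a copy; the dotted line marks equal shares. Rpl12, Rps12 and Rpl10 lie far below the line, and Rpl5 lies near 5% on both axes.

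Rpl5 kept the smallest share of the members with a copy. It had 450, 377 and 623 expected counts, against 9461, 7213 and 7284 for Gm15500, which is identical to the Rpl5 coding sequence over the matched stretch. Rpl5 thus held 4.54, 4.96 and 7.87% of its family's counts. The M4 table gave Rpl5 itself 5120, 4183 and 4469 counts. As CPM of each table's own total, Rpl5 had 463, 417 and 642 in the M4 table and 41.0, 38.8 and 93.5 in the gene table. In every library the M4 value was the higher.

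Other members also shared counts with their copies. Rps6 kept 48.3, 46.7 and 44.8% of its family's counts, most of the rest lying on Rps6-ps4 (14748, 10797 and 11122 counts). Rps13, of the small subunit, kept 36.1, 36.1 and 22.9%, and its copy Rps13-ps2 had 1911, 1422 and 0 counts while Rps13-ps1 had 2426, 1685 and 3319. The 5 members that differed most between the gene table and the second transcript table, each rescaled to protein-coding genes, were Rpl12 (log2 difference -3.42 ± 0.12), Rps12 (-2.96 ± 0.21), Rpl10 (-1.94 ± 0.26), Rps15a (1.38 ± 0.05) and Rps29 (0.97 ± 0.10). Rpl12 kept 53.8 ± 1.26% of its family's counts in the gene table and 6.72 ± 0.475% in the second. Over all detected members, 1 was more than 2-fold higher and 3 were more than 2-fold lower in the second table, and the median difference was 0.12. The order of members was much alike in both (Spearman's rho 0.94 over 83 genes, which share reads and models).

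**Figure D4:**
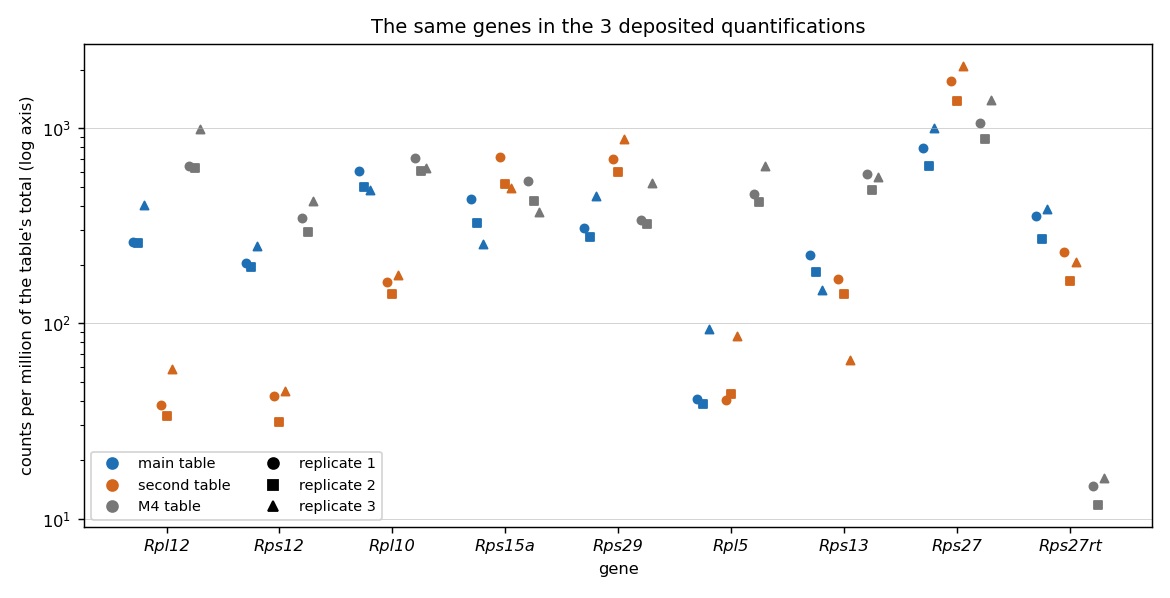
CPM of each table's own total for 9 members in the gene table (main table), the second transcript table and the M4 counts, with 3 libraries each. Rpl5 averages 507 CPM in the M4 counts, against 57.8 CPM in the gene table, and Rpl12 and Rps12 are lowest in the second table.

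The deposited credible intervals of the gene table were widest, relative to TPM, for Rps19bp1 (35.9%), Rpl5 (20.9%), Rpl7l1 (20.4%), Rpl31 (18.8%) and Rpl22l1 (16.0%). They are the authors' values and do not cover the choice of gene models.

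Transcripts annotated as protein-coding held a median of 98.1% of a member's TPM, against 86.6% for 10470 other protein-coding genes at 1 TPM or more. The share was under 50% for 14 of 83 members (16.9%) and for 1740 of the other genes (16.6%). The 14 included Rpl35 (3.57 ± 0.58%), Rps26 (4.85%) and Rps20 (5.80%), where transcripts of other annotated types held the rest. Rpl5 differed between libraries in this respect as well. Its coding isoform Rpl5-201 held 19.8, 19.4 and 46.5% and its retained-intron isoform Rpl5-205 held 61.7, 68.4 and 38.7% of the gene, in the deposited isoform percentages. Most counts of the Rpl5 family lay on Gm15500, which matches the Rpl5 coding sequence (above). Of the 14, Rpl5, Rps16 and Rps23 kept less than 50% of their family's counts in the gene table and the others more. By the second transcript table Rpl12 (6.72%), Rpl35 (44.3%) and Rpl37 (46.0%) also kept less than 50%. Coding shares differed between these tables too, higher in the second for Rpl24 (27.1 and 59.0%) and lower for Rpl14 (55.0 and 23.4%). The part of reads shared with copies in these isoform shares was not tested. For Rps24, the isoforms Rps24-201, Rps24-202 and Rps24-210 held 67.6 ± 0.996, 25.4 ± 1.35 and 6.64 ± 0.307%.

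Whether the members varied between the 3 libraries was tested together with all 12997 genes whose counts averaged 10 or more, 83 of them members. Against sampling noise alone, 8493 genes (65.3%) varied at an adjusted p below 0.05 (chi-square test on TMM-scaled counts, Benjamini-Hochberg), and so did 81 of the 83 members. The others were Rps27l (adjusted p = 0.776) and Rps19bp1 (adjusted p = 0.0751). This test calls smaller differences at higher counts, so its shares depend on depth. Counts averaged 1000 or more for 80 members and for 1869 of all genes tested. A share at like depth was not computed. When edgeR's trended dispersion was added to the variance, 170 genes (1.31%) varied, among them 1 member, Rpl5. The trend was fitted to the counts under test, with the 3 libraries as 1 group. Differences between the libraries thus raised the variance they were tested against, which works against calls. In a simulation, this test recovered 72% of genes changed 3-fold and 2% of genes changed by a smaller fold. A gene that did not pass need not have been steady. Rpl5 had 41.5, 38.5 and 93.3 CPM after TMM scaling, with an SD of log2 CPM of 0.70 and an adjusted p of 0.0328 with edgeR's trended dispersion. Its adjusted p with that dispersion was 0.411, 0.566 and 0.999 without replicate 1, 2 and 3, 0.243 without the count filter and 0.485 in the second transcript table. With its copies added, Rpl5 had 914, 776 and 1186 CPM. At an unadjusted p below 0.05, 2 members (Rpl5 and Rps25) and 715 of all genes varied.

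Rps25, a small-subunit protein used by some viral internal ribosome entry sites, had 759, 641 and 1242 CPM (SD 0.50, adjusted p = 0.580 with edgeR's trended dispersion). It was higher in replicate 3, as Rpl5 was. Rps15a had 442, 324 and 255 CPM (SD 0.40) and was lowest in replicate 3. Rpl12 (SD 0.37) and Rps29 (SD 0.36) followed. The steadiest members were Rps27l (SD 0.04), Rpl22l1 (0.10), Rplp1 (0.14), Rps21 (0.17) and Rpl4 (0.17). The median SD was 0.244 over the members and 0.250 over all genes tested. It was 0.330 and 0.242 without replicate 1, 0.152 and 0.245 without replicate 2, and 0.211 and 0.143 without replicate 3, so the order of members and all genes depended on the libraries used. Where counts averaged 1000 or more it was 0.244 for 80 members and 0.190 for the 1869 genes.

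**Figure D5:**
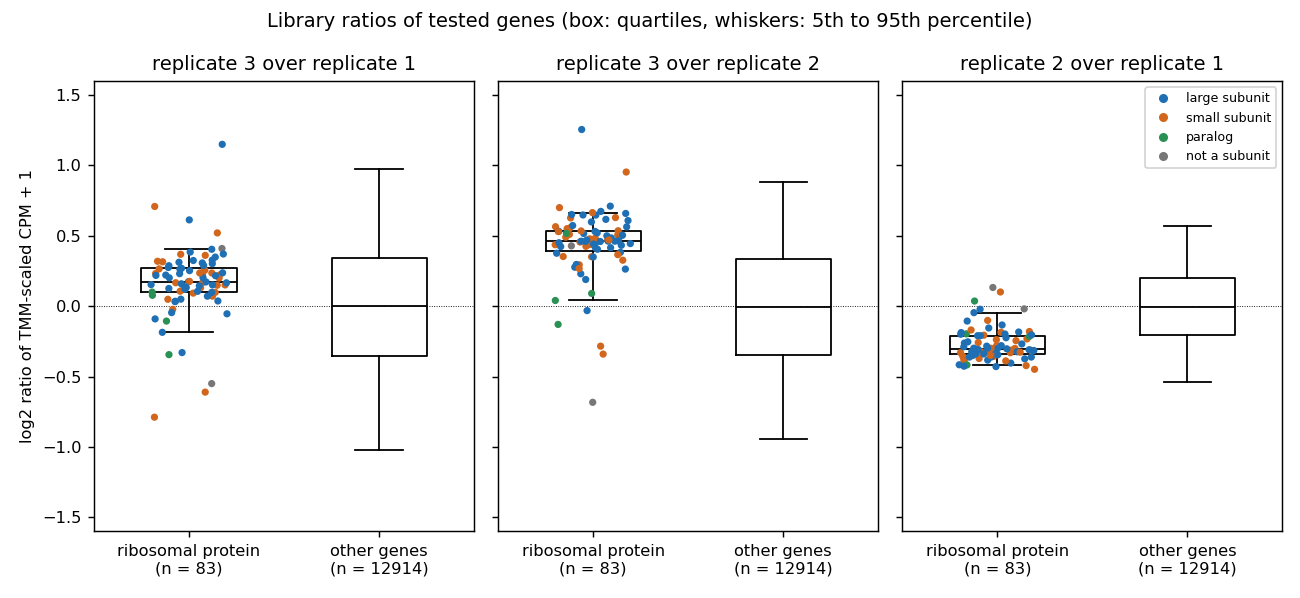
Log2 ratio of CPM between each pair of libraries, members (n = 83) left and all other genes tested right, with each member as a point, boxes at the quartiles and whiskers at the 5th and 95th percentiles. On the gene table's counts, most members lie above 0 for replicate 3 over 1 and 3 over 2 and below 0 for 2 over 1. The other genes are centred near 0.

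Most members took the same order over the 3 libraries in the gene table. The 3 pairs of libraries share libraries, so their values are given side by side. The median log2 ratio over members was 0.17 for replicate 3 over 1, 0.46 for 3 over 2 and -0.31 for 2 over 1, against -0.00, -0.00 and -0.01 over all genes tested. The ratio was above 0 for 72, 78 and 3 of the 83 members, against 49.96, 49.9 and 49.2% of all genes. In 70 of the 83 the order was replicate 3 above 1 above 2, which was the order of 19.5% of all genes. In the second transcript table the medians were 0.04, 0.40 and -0.38, and 45, 78 and 1 members were above 0. Among transcripts below 700 nt, the medians were 0.17, 0.48 and -0.31 for 43 members and -0.10, 0.11 and -0.20 for 314 other genes. Between 700 and 1000 nt they were 0.15, 0.47 and -0.31 for 24 members and -0.14, 0.01 and -0.18 for 484 other genes.

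The 13 members with another order included 4 of the 6 tested that are paralogs or not subunits (Rpl22l1, Rpl36al, Rps27l and Rpl7l1) and 9 subunit genes (Rpl7, Rpl10, Rpl15, Rpl22, Rplp1, Rps9, Rps13, Rps15 and Rps15a). Rps13 had 227, 181 and 149 CPM. With its copies added, it had 630, 502 and 650 CPM and took the common order. Rps15a did not, at 480, 357 and 306 CPM with its copies. Over all 83 members, 71 had the common order with their copies and 70 without.

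The share of counts on ribosomal RNA genes, nuclear and mitochondrial together, was 3.04, 2.71 and 3.95% in replicates 1, 2 and 3. It had the same order as the members' share, and so had the share of the copies and the summed plasma cell markers given above. The erythroid, B cell and myeloid sums were highest in replicate 1. The regulatory T and T cell sum and the stromal, endothelial and epithelial sum were highest in replicate 2. The part of these shares and sums in the members' ratios was not tested. Mitochondrial transcripts, which include the mitochondrial ribosomal RNAs counted above, held 2.87, 2.21 and 2.67%.

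Other parts of the translation apparatus were set beside the members. Median log2 ratios are given for 3 over 1, 3 over 2 and 2 over 1. They were -0.08, 0.03 and -0.12 for the 78 mitochondrial ribosomal protein genes and -0.01, 0.23 and -0.18 for 14 other TOP mRNAs. For 29 genes named as initiation factors they were 0.02, 0.10 and -0.15, and for 31 ribosome biogenesis genes 0.03, 0.04 and 0.01. Beyond sampling noise (chi-square test), 51 of 78, 14 of 14, 25 of 29 and 24 of 31 of these genes varied, beside 65.3% of all genes. With edgeR's trended dispersion 0 of them did, and 1, 0, 0 and 1 had an unadjusted p below 0.05. As for the members, the lack of calls with that dispersion does not show that these genes were steady. Of 15 regulators of TOP mRNAs 11 varied beyond sampling noise, and of the 7 genes of p53 surveillance 6 did, with Rpl5 alone passing under the trended dispersion. Some genes were in more than 1 list, so these counts overlap. Eif3e, Eif3f, Eif3h and Eif4b were in both the TOP and the initiation lists. Npm1 was in the TOP and biogenesis lists, and Eif4e in the initiation and regulator lists. Differences between lists were not tested.

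These lists spanned a wide range of levels. Among the other TOP mRNAs, Eef1a1, the main elongation factor, averaged 9750 ± 755 TPM and Tpt1 1422 ± 137 TPM, while Eif4b averaged 101 ± 21.8 TPM and Eif3f 24.0 ± 6.15 TPM. Among the genes named as initiation factors, Eif1 (1246 ± 154 TPM) and Eif5a (1157 ± 98.9 TPM) were highest. Eif5b (23.4 ± 2.65 TPM) and Eif3j1 (3.17 ± 0.81 TPM) were lowest. Not every gene with such a name need act in initiation. In ribosome biogenesis, Npm1 (1187 ± 70.6 TPM) and Ncl (328 ± 49.5 TPM), both nucleolar proteins, stood above Bysl (10.2 ± 2.72 TPM) and Rrs1 (2.27 ± 0.27 TPM). Among the regulators of TOP mRNAs, Eif4e (189 ± 26.7 TPM) and Myc (103 ± 6.57 TPM) were highest and Rptor (5.98 ± 1.09 TPM) and Akt1s1 (4.27 ± 1.52 TPM) lowest. In the p53 surveillance list, which shares Rpl5, Rpl11 and Rps27l with the members, Rpl11 (858 ± 111 TPM) and Trp53 (211 ± 76.9 TPM) were highest and Mdm2 (49.2 ± 0.53 TPM) and Cdkn1a (10.7 ± 3.33 TPM) lowest.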

How the data were processed

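PolyA-selected RNA from 1 biosample was sequenced as 3 technical replicate libraries. Per the file headers, the authors deposited a gene table with expected counts and TPM, transcript tables with estimated counts, TPM and isoform percentages (percent of a gene), and a table of whole-number counts per gene. The tables' column names are those RSEM and kallisto write, while the sources used here do not give the programs or versions. Gene and transcript tables use M21 models, and the whole-number counts use the older M4 models. Counts of the gene table were rounded, genes with a mean count under 10 were left out, and library sizes were scaled by TMM (edgeR 4.0.16, R 4.3.3). The libraries form 1 group, so no contrast was tested. Variation over libraries was tested by chi-square with 2 degrees of freedom, with Poisson variance and again with edgeR's trended dispersion, adjusted over all genes tested by Benjamini-Hochberg. The trend was fitted to the counts under test, so differences between the 3 libraries are part of the variance it adds. DESeq2 1.42.0 size factors were an alternative. Levels are TPM as deposited, compared on log2(TPM + 1). Copies were searched with BLAST 2.17.0. Figures and tables used Python 3.11.15 with pandas 2.3.3, numpy 2.4.6, scipy 1.17.1, matplotlib 3.10.9 and Biopython 1.88.

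The members and lists were chosen with earlier results of these data known. Genes named with values are the 8 highest and 8 lowest members by mean TPM, the 5 with the largest and the 5 with the smallest spread between libraries, all paralogs with the members they resemble, the stalk proteins, the X-linked members, Rps27a, Rps24, Rps19, Rps6, Rpsa, Rack1 and Fau, the 5 members that differ most between tables, the 5 with the widest intervals, and the 2 highest and 2 lowest genes of each other list. A few genes that this rule or a figure would name are not reported here. Chosen after seeing the data were the near-identical copies, the rescaled TPM, the 15-base window at promoters, the length classes, paralog differences with copies or on protein-coding transcripts, and Rpl5, Rps13, Rps27 and Rps27rt in the comparison of 3 tables. The promoter window was first 5 bases at any RefSeq row, then 15, then 5 at the nearest row, which is the one reported.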

Additional observations from a re-analysis of the deposited data

How the results depend on the processing

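The members' share was 8.56% in the M4 counts and 7.96% with copies, and 6.24 to 7.26% leaving out each library in turn. Their median level was 1003 TPM in the second table, 2080.4 with copies, 1826 and 1907 with the gene table and the second table rescaled to protein-coding genes, and 1401 to 1553 with each library left out. The log2 ratio of large-subunit over small-subunit genes was 0.20 in the second table and turned to -0.13 by the median gene. Leaving out a library gave 0.32 to 0.33. Members varying beyond sampling noise numbered 78, 71 and 77 without replicate 1, 2 and 3, beside 51.5, 53.9 and 31.9% of all genes. With edgeR's trended dispersion, 0 members varied without a count filter, in the second table and without any 1 library, against 1 in the main test. The shares over all genes were 0.56%, 1.37% and 0.16 to 0.33%, against 1.31% in the main test. At an unadjusted p below 0.05, 2 members varied without a count filter and 2 in the second table, beside 991 of 27819 and 863 of 17193 genes. Leaving out replicate 1, 2 and 3 in turn gave 2, 1 and 0 members, beside 556 of 12880, 609 of 12973 and 479 of 13137 genes. The median SD was 0.15 to 0.33 without 1 library, against 0.143 to 0.245 over all genes. The ratios of replicate 3 over 1, 3 over 2 and 2 over 1 were 0.039, 0.40 and -0.38 in the second table. Rps27rt against Rps27 was -3.28 and Rps27l against Rps27 -5.57 there, and Rps27rt was -1.51 to -1.41 leaving out a library. Rpl36al against Rpl36a was -1.43 with copies, and Rpl22l1 against Rpl22 -3.37 on protein-coding transcripts. With a window of 15 bases, 65.2% of matched promoters held a run of at least 5, against 41.0% of all genes. Of the 84 members above 0 TPM in any library of the gene table, 70 moved beyond their SD in the second table. These levels are TPM as deposited, with a median over members of 1003 in the second table and 1473 in the gene table. Moves of single genes on the rescaled TPM were not counted. Where no cause is visible in the construction of an alternative, the cause was not tested. No paired analysis was possible because the 3 libraries form 1 group. Depth limits Rpl39l, Rpl3l and Rpl10l, and all SDs rest on 3 libraries labelled technical replicates of 1 biosample.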

Other observations

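The mitochondrial ribosomal protein genes, set beside the members above, spanned a wide range of levels as well. Mrps21 averaged 249.7 ± 53.6 TPM and Mrpl33 243 ± 28.2 TPM at the upper end, and Mrpl47 12.4 ± 1.66 TPM and Mrps30 1.69 ± 0.38 TPM at the lower end (SD, n = 3).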
